A study of Mus musculus with 2 samples.

Results

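Chemokines are small secreted proteins that direct the movement of leukocytes through G protein-coupled receptors. In a lymph node they bring T cells, NK cells and dendritic cells into contact, and each ligand is made by a restricted set of cells. The 10 ligand genes described here are Ccl3, Ccl4, Ccl5, Ccl6, Ccl17, Ccl22, Cxcl9, Cxcl10, Cxcl16 and Xcl1. They were chosen by gene symbol among the 31053 genes of the count tables, with earlier results of these data known. All 10 were present in both libraries, and all 10 had at least 50 unique molecular identifiers (UMIs, each standing for 1 captured transcript) over both libraries.

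The cells came from mediastinal lymph nodes (MedLNs), which drain the lung, of wild-type C57/B6J mice with ovalbumin (OVA)-induced asthma. All mice received 50 µg OVA with alum on days 0 and 7 and intranasal OVA from day 14 to day 16, and the study's methods give collection on day 17 and mice of 5 to 13 weeks. The library labelled OVA came from mice without butyrate and the library labelled C4 from mice with butyrate supplementation, a short-chain fatty acid made by gut bacteria. The sources used here do not state whether the butyrate of these mice was given in drinking water or by gavage. The cells of 4 mice were pooled in each library, so there was 1 library per condition, no replicate and no test, and the differences between mice cannot be seen. All 95% intervals given below cover counting error only. The library without butyrate held 9681 cells and 59176459 UMIs, and the library with butyrate held 8932 cells and 58381292 UMIs. Once cells with a mitochondrial share above 10%, with fewer than 200 genes or with the highest doublet scores had been left out, 8774 and 8013 cells remained, with medians of 5072 and 5644 UMIs per cell. There were 22 cell barcodes that both retained sets shared.

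Source cells were classed by the UMIs of 6 lineage genes. The classes were Cd79a+ (Cd79a is part of the B cell receptor), Cd3e+Cd8a- (T cells without the CD8 coreceptor) and Cd8a+ (cells with it). A Cd8a+ cell needed no Cd3e UMI, so this class can hold cells that are not T cells. The T cell gene Cd3d was found in 99.2% of them without and 99.7% with butyrate. Further classes were Ncr1+ (Ncr1 encodes the NK cell receptor NKp46), Lyz2+ (lysozyme of myeloid cells) and Flt3+ (a cytokine receptor of dendritic cells). Cells with markers that do not belong together were called mixed, and cells with none of these markers were kept apart. Without and with butyrate, the Cd79a+ class held 4012 and 3752 cells, the Cd3e+Cd8a- class 2156 and 1819, and the Cd8a+ class 1815 and 1785. The other classes were small, with 23 and 39 Ncr1+ cells, 35 and 23 Lyz2+ cells, 17 and 38 Flt3+ cells, 263 and 247 mixed cells and 453 and 310 cells with no marker. Genes that the rule did not use bore on these names. Ms4a1, a B cell surface gene, had a UMI in 94.9% and 96.1% of Cd79a+ cells, and Cd8b1, the partner chain of CD8, in 96.8% and 97.4% of Cd8a+ cells. The NK receptor gene Klre1 was found in 20 of 23 and 29 of 39 Ncr1+ cells, and the T cell gene Cd3d in 8 of the 23 and 20 of the 39. Csf1r, the growth factor receptor of monocytes and macrophages, was found in 23 of 35 and 11 of 23 Lyz2+ cells. Cst3, abundant in dendritic cells, was found in 16 of 17 and 38 of 38 Flt3+ cells, but also in 59.6% and 59.5% of Cd79a+ cells. Zbtb46, another dendritic cell gene, was found in 6 of 17 and 17 of 38 Flt3+ cells. Siglech, a plasmacytoid dendritic cell gene, was found in 3 and 11 Flt3+ cells, and Cd3d in 1 and 8. The name Cd3e+Cd8a- did not mean CD4+, since Cd4 was detected in 47.7% and 51.1% of that class, and Trac, the T cell receptor alpha chain, was detected in 76.8% and 72.9% of the cells with no marker.

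Ligand RNA was found in few cells. At least 3 UMIs of any of the 10 ligands were found in 418 cells (4.76%) without and 432 cells (5.39%) with butyrate. The share was 0.798% and 1.01% in Cd79a+ cells, 4.04% and 4.07% in Cd3e+Cd8a- cells, and 10.7% and 11.5% in Cd8a+ cells. It reached 20 of 23 and 33 of 39 Ncr1+ cells, 21 of 35 and 9 of 23 Lyz2+ cells, and 11 of 17 and 27 of 38 Flt3+ cells. Of all UMIs of the 10 ligands, 14110 without and 19305 with butyrate, Ccl5 took 77.0% and 59.0%. These are counts of transcript 3′ ends and are not divided by gene length. Levels are UMI counts scaled to the same total in every class (CPM). With mixed cells and cells without marker left aside, the class of highest level was the same in both libraries for 7 of the 10 ligands. In all 7 it was the Ncr1+, Lyz2+ or Flt3+ class, of 17 to 39 cells, and for Cxcl10 with butyrate it rested on 4 UMIs. The class that held the most UMIs was the same for 4 of the 10.

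**Figure D1:**
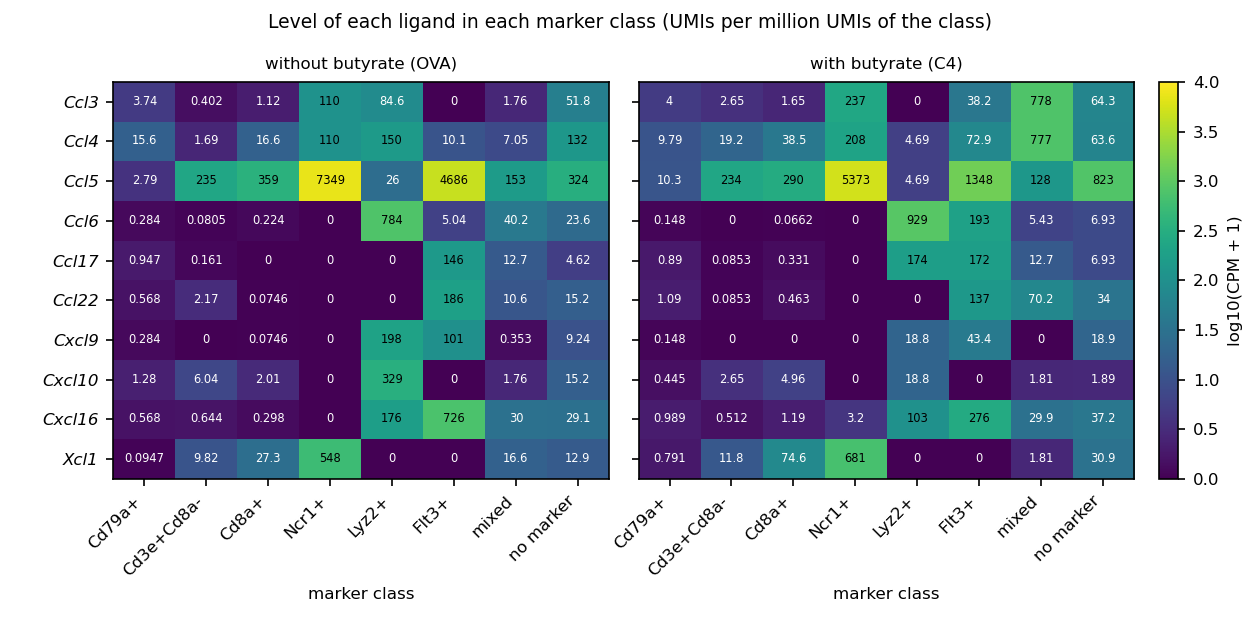
Level of each ligand (rows) in each marker class (columns) in both libraries, in CPM, printed in each field and coloured on a log10(CPM + 1) scale. Ccl5 and Xcl1 were highest in Ncr1+ cells in both libraries, and Ccl6 was highest in Lyz2+ cells.

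**Figure D2:**
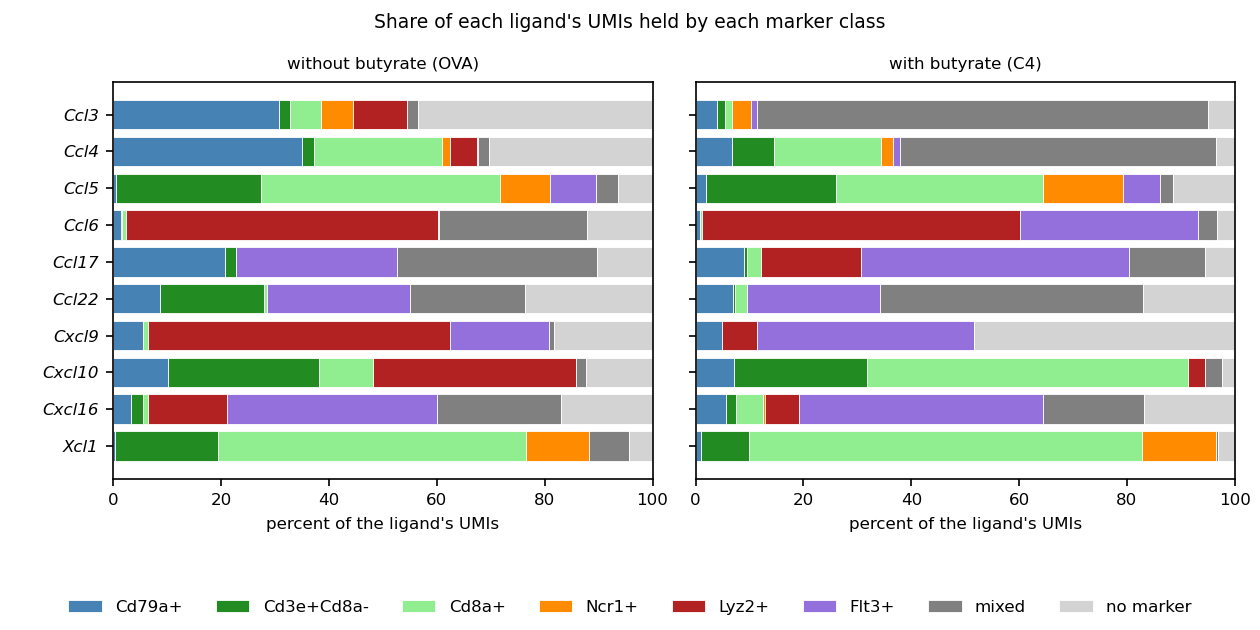
Percent of each ligand's UMIs held by each marker class, on an axis from 0 to 100, for the libraries without (left) and with butyrate (right). The Ccl3 bar of the library with butyrate is mostly mixed (83.7%, nearly all of it in 1 cell). The largest part of the Cxcl10 bar is Lyz2+ without butyrate (37.7%, with Cd3e+Cd8a- next at 28.0%) and Cd8a+ with butyrate (59.5%).

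Ccl5 (RANTES), a chemokine made late by activated T cells and by NK cells, lies on mouse chromosome 11 (GRCm38 chr11:83525778-83530518, minus strand). It had 10871 UMIs without and 11382 with butyrate, 207 and 219 CPM, a log2 ratio of 0.08 (95% interval 0.05 to 0.12). It was spread over 551 and 609 cells, the highest of which held 3.29% and 2.54% of its UMIs. The ratio was hardly moved by any single cell, at 0.09 without the highest cell of each library and 0.10 without the 3 highest.

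Most Ccl5 came from T cells, while the highest level was in Ncr1+ cells. Cd8a+ cells held 44.3% and 38.5% of the UMIs and Cd3e+Cd8a- cells 26.8% and 24.1%. The level was 7349 CPM without and 5373 CPM with butyrate in the Ncr1+ cells, a log2 ratio of −0.45 (−0.57 to −0.34) that rests on 23 and 39 cells. In Cd8a+ cells it was 359 and 290 CPM, a log2 ratio of −0.31 (−0.37 to −0.25), and in Cd3e+Cd8a- cells 235 CPM in both. In the 17 and 38 Flt3+ cells it was 4686 and 1348 CPM, where the highest cell held 38.5% and 26.6% of the UMIs. These differences within classes stand beside a near equal total. Within the cells with no marker the level was 324 and 823 CPM, from 701 and 1306 UMIs.

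The share of cells with a Ccl5 UMI was compared with each cell thinned to 2000 UMIs, since classes differ in depth. It was 86.4% and 76.9% in Ncr1+ cells, 8 of 16 and 12 of 38 cells in the Flt3+ class, 10.7% and 10.3% in Cd8a+ cells and 4.53% and 5.10% in Cd3e+Cd8a- cells. Cd79a+ cells, which are not known as a source of Ccl5, gave a level of background of 0.604% and 0.857% (unthinned 1.42% and 2.21%, at median depths of 4381 and 4593 UMIs). Ccl5 in the other classes named was above this background. In the Cd79a+ class itself the CPM was 2.79 and 10.3, a log2 ratio of 1.84, which fell to 0.07 when every marker was required at only 1 UMI. At least 3 Ccl5 UMIs were found in 0 Cd79a+ cells without and 6 with butyrate. Of these 6, 5 had 3 or more of 8 listed mature dendritic cell genes, against 17.25% of the other Cd79a+ cells. Also, 5 of the 6 had 3 or more of 5 listed B cell genes. The part of such cells in the background was not tested.

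Within Cd8a+ cells, Ccl5 lay in the cells with memory or effector genes. The 354 and 425 Cd8a+ cells with at least 3 genes of a memory or effector list (such as Cd44, Cxcr3, Il2rb and Eomes) held 84.7% and 88.7% of the Ccl5 of the class, and 53.4% and 48.2% of them had a Ccl5 UMI. Among the other 1461 and 1360 Cd8a+ cells the share was 6.37% and 6.03%. The genes that most marked the cells with at least 3 Ccl5 UMIs in both libraries were Ctla2a, Klrk1 (the activating receptor NKG2D), Serpinb6b, Il2rb (the IL-2 and IL-15 receptor beta chain) and Klrc2. Ctla2a was found in 208 of 312 and 201 of 329 of these cells, against 4.47% and 4.37% of all others. Cxcr3, the receptor of Cxcl9 and Cxcl10, was found in 46.8% and 48.3% of them, against 3.07% and 4.13%. The cells with Ccl5 therefore carried genes of cytotoxic and antigen-experienced lymphocytes in both libraries.

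Xcl1 (lymphotactin), the ligand of the receptor XCR1 on cross-presenting dendritic cells, lies at chr1:164931644-164935527 on the minus strand. It had 640 UMIs in 189 cells without and 1547 UMIs in 214 cells with butyrate, 12.2 and 29.8 CPM, a log2 ratio of 1.28 (1.16 to 1.43). A large part of that difference lay in 3 Cd8a+ cells of the library with butyrate, with 360, 212 and 193 UMIs. The highest cell without butyrate had 38. Without the highest cell of each library the log2 ratio was 0.99, and without the 3 highest it was 0.51 (0.35 to 0.67). The cells with 212 and 193 UMIs were deep, with 33365 and 39444 UMIs in all, and had all 4 genes of the cycling list, while the cell with 360 had 17309 UMIs and none of that list.

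The share of cells with Xcl1 did not follow the sum. In thinned Cd8a+ cells it was 2.48% without and 2.41% with butyrate, while the CPM of that class was 27.3 and 74.6, a log2 ratio of 1.45 (1.28 to 1.62), or 0.12 without the 3 highest cells. Ncr1+ cells had the highest level, at 548 and 681 CPM (0.31, interval −0.07 to 0.71, in 23 and 39 cells). Cd8a+ cells nevertheless held most of the UMIs, 57.2% and 72.8%. Flt3+ and Lyz2+ cells had 0 Xcl1 UMIs in both libraries.

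Xcl1 and Ccl5 shared source cells. Both were found in 137 cells without and 133 with butyrate, which is 72.5% and 62.2% of the cells with Xcl1 and 24.9% and 21.8% of the cells with Ccl5. The product of the separate shares would give 11.9 and 16.3 cells, a number that takes no account of depth or cell type. Of the cells with at least 3 Xcl1 UMIs, 55 of 65 and 73 of 84 had 3 or more genes of the memory or effector list, and Klre1 was found in 26 of 65 and 32 of 84. Across the classes of both libraries (16 points, which share 2 libraries and differ in depth), the gene most like Xcl1 was Cd160, a receptor of NK and cytotoxic T cells, with Pearson's r = 0.974 on log2(CPM + 1), and the gene most like Ccl5 was Tnfrsf9 (4-1BB) with r = 0.946.

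Ccl3 (MIP-1α) and Ccl4 (MIP-1β), inflammatory chemokines that attract leukocytes, lie side by side on chromosome 11 at chr11:83647844-83649355 (minus strand) and chr11:83662584-83664683 (plus strand). Ccl3 had 257 UMIs without and 2054 with butyrate, 4.89 and 39.5 CPM, a log2 ratio of 2.99 (2.83 to 3.21). Ccl4 had 941 and 2930 UMIs, 17.9 and 56.4 CPM, a log2 ratio of 1.65 (1.55 to 1.76). These sums were mostly 1 cell. A single cell of the library with butyrate held 1710 Ccl3 UMIs (83.2%) and 1701 Ccl4 UMIs (58.1%), and the rest of that library held 344 and 1229.

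That cell was the deepest of its library, with 75016 UMIs and 6664 genes. It had 32 UMIs of Cd3e, 33 of Cd4 and 2 of Cd79a, which placed it among the mixed cells. Its Cd79a level was 26.7 CPM, against 2903 CPM in Cd79a+ and 13.2 CPM in Cd8a+ cells of that library. Its doublet score stood at percentile 51.9 of the retained cells. Of 5 listed B cell genes, Cd79a among them, it had 3, beside 5 listed T cell genes. Whether it was a doublet was not tested. It also held 1168 UMIs of Il4 and 1085 of Il13, the type 2 cytokines, 442 of Ifng, 193 of Il10 and 149 of Il5, and 390 of the 414 UMIs of the chemokine Ccl1 in that library. Ccl3 and Ccl4 together were 4.55% of its UMIs.

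**Figure D3:**
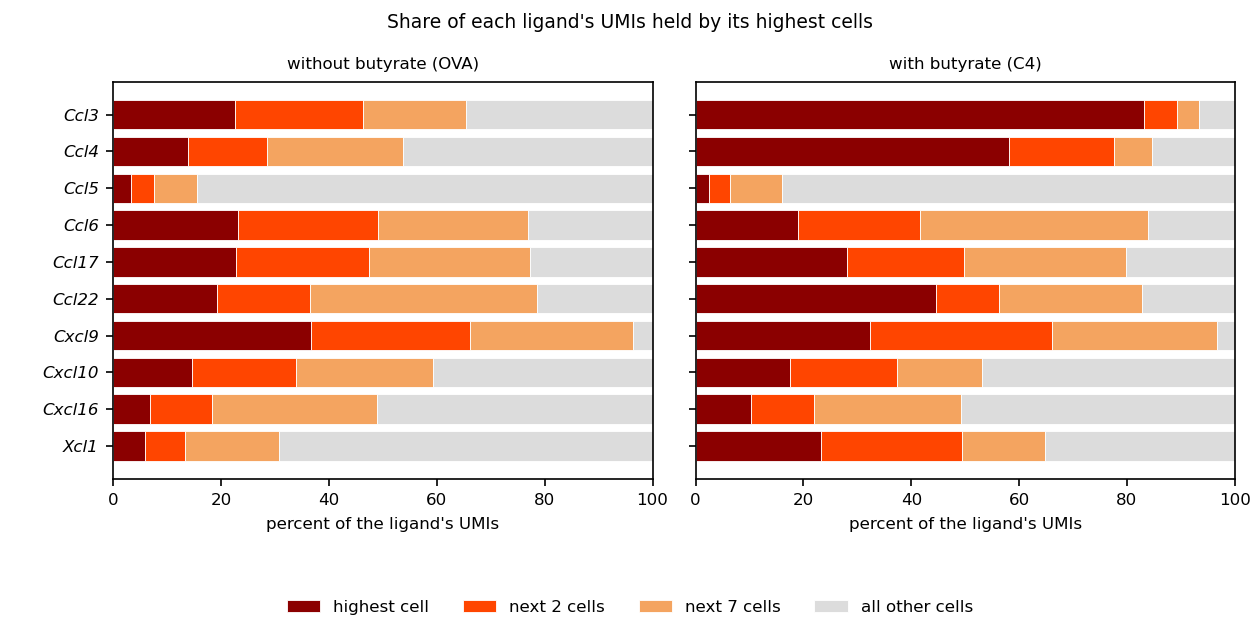
Percent of each ligand's UMIs in its highest cell, the next 2, the next 7 and all other cells, on an axis from 0 to 100, without (left) and with butyrate (right). The highest cell held 83.2% of Ccl3 and 58.1% of Ccl4 with butyrate, and 3.29% and 2.54% of Ccl5 without and with butyrate.

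Without the highest cell of each library the log2 ratio was 0.79 (0.55 to 1.07) for Ccl3 and 0.62 (0.49 to 0.75) for Ccl4, and without the 3 highest 0.68 and −0.02. The number of cells with a UMI was 75 and 93 for Ccl3 and 198 and 183 for Ccl4. Ccl4 thus changed sign with the cells that were counted, and the same held for Cd8a+ cells, where its log2 ratio of 1.21 became −0.21 without the highest cell of each library. That cell had 411 Ccl4 UMIs and was also the highest Xcl1 cell.

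Ccl3 and Ccl4 were made at low numbers in many classes. The level in Ncr1+ cells was 110 and 237 CPM for Ccl3 and 110 and 208 CPM for Ccl4. The cells with at least 3 Ccl4 UMIs included 23 and 25 Cd79a+ cells and 18 and 13 Cd8a+ cells. Of all such cells, 3 of 52 and 8 of 60 had 3 or more of 5 plasmacytoid dendritic cell genes. Among other cells the share was 0.333% and 0.415%. The highest Cd8a+ cell without butyrate, with 47 Ccl4 UMIs, had 0 of the listed T cell genes. The Cd79a+ level of Ccl4 was 15.6 and 9.79 CPM (−0.67, or −0.40 without the highest cells). Ccl3 in Cd79a+ cells was 3.74 and 4.0 CPM, a log2 ratio of 0.10 (−0.37 to 0.56). A difference of Ccl3 in Cd79a+ cells was not detectable at this depth.

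Cells with basophil or mast cell genes were a further source. Cells with at least 2 of the 4 genes Mcpt8, Fcer1a, Cpa3 and Ms4a2 numbered 2 without and 1 with butyrate, and reached the threshold of none of the 6 lineage markers. The 2 cells without butyrate held 102 UMIs of Ccl3 (39.7%), 195 of Ccl4 (20.7%) and 47 of Ccl6 (11.3%). The 1 cell with butyrate held 86 UMIs of Ccl3 (4.19%), 1 of Ccl4 and 5 of Ccl6. With so few cells these counts describe single cells, not the conditions. Both ligands were found together in 21 cells of each library, which is 28.0% and 22.6% of the cells with Ccl3 and 10.6% and 11.5% of the cells with Ccl4, and the genes that most marked Ccl3 cells after Ccl4 were Tyrobp and Fcer1g, the signalling adaptors of NK and myeloid receptors.

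Ccl17 (TARC) and Ccl22 (MDC), the ligands of CCR4, and Cxcl16, the membrane-bound ligand of CXCR6, shared source cells with dendritic cell genes. Ccl17 lies at chr8:94810453-94812036 and Ccl22 at chr8:94745590-94751699, both on the plus strand, and Cxcl16 at chr11:70453983-70459984 on the minus strand. Ccl17 had 97 and 199 UMIs (1.84 and 3.83 CPM, log2 ratio 1.02, interval 0.70 to 1.42), in 29 and 31 cells. Ccl22 had 140 and 318 UMIs (2.66 and 6.12 CPM, 1.17, 0.91 to 1.5), in 23 and 33 cells. Cxcl16 had 370 and 351 UMIs (7.04 and 6.76 CPM, −0.06, −0.27 to 0.16), in 71 cells of each library. A difference of Cxcl16 was not detectable, and its sign changed on thinning to 2000 UMIs, to 0.39.

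The sums of Ccl17 and Ccl22 depended on a few cells as well. One mixed cell of the library with butyrate held 142 of the 318 Ccl22 UMIs. Without the highest cell of each library the log2 ratio was 0.63 for Ccl22 and 0.90 for Ccl17. For Ccl17, 58 further UMIs of the library without butyrate lay in 2 cells removed for their doublet scores, and with doublets kept its log2 ratio was 0.45.

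The Flt3+ class caught only part of these sources. Cells with Fscn1 (fascin, an actin-bundling protein of mature dendritic cells) and at least 4 of 8 mature dendritic cell genes numbered 38 without and 47 with butyrate, of which 10 and 19 were Flt3+, 12 and 7 mixed and 13 and 12 without marker. These cells held 90.7% and 97.2% of Ccl22, 77.3% and 74.9% of Ccl17 and 74.3% and 82.1% of Cxcl16. None of these 3 ligands is on that list. Their level was 199 and 565 CPM for Ccl22, 118 and 272 CPM for Ccl17 and 431 and 527 CPM for Cxcl16. With butyrate, single cells of this group held 142 UMIs of Ccl22 and 56 UMIs of Ccl17, so these levels lean on few cells. Of the 38 and 47 cells, 21 and 25 had Ccl22, 16 and 21 had Ccl17, and 29 and 39 had Cxcl16. Ccl5 was found in 22 of 38 and 42 of 47 of them, at 2282 and 3806 CPM (the Flt3+ class as a whole went the other way), which made them the source of 13.4% and 18.3% of all Ccl5. Xcl1 and Ccl4 had 0 UMIs in them in both libraries.

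The genes that marked the cells with at least 3 UMIs of Ccl22 were Fabp5, Fscn1, Anxa3, Tmem176a and Cxcl16, and each of the 5 was found in 14 of 15 such cells without and in 17 of 17 with butyrate. Ccl17 was marked by the same 5 genes. Across the class points the gene most like Ccl22 was Cacnb3 (r = 0.977), which is itself on the mature dendritic cell list, and the gene most like Cxcl16 was Batf3 (r = 0.986), a transcription factor of conventional dendritic cells. Ccl17 and Ccl22 occurred together in 14 and 18 cells, 48.3% and 58.1% of the cells with Ccl17 and 60.9% and 54.5% of those with Ccl22.

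Ccl6, a mouse CC chemokine of macrophages and other myeloid cells, lies at chr11:83587882-83593087 on the minus strand. It had 417 and 336 UMIs, 7.93 and 6.47 CPM, a log2 ratio of −0.29 (−0.51 to −0.08), in 41 and 31 cells. Lyz2+ cells held 57.8% and 58.9% of its UMIs, at 784 and 929 CPM, in 23 of 35 and 7 of 23 cells. T cells had almost none, with at most 3 UMIs in either T cell class. With butyrate 33.0% of its UMIs were in Flt3+ cells, against 0.240% without, and the highest of these cells also had 237 UMIs of Lyz2. Its highest cell held 23.0% and 19.0%, and without the 3 highest cells of each library the log2 ratio was −0.09 (−0.38 to 0.19). The genes that marked its cells were Lyz2, Chil3, Fn1, C1qb and Alox15, a set of monocyte and macrophage genes.

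Cxcl9 (MIG) and Cxcl10 (IP-10), ligands of CXCR3 that interferons induce, were lower with butyrate. Their promoters are shown because both are known interferon targets. The sequences are those of RefSeq on GRCm38.p6, the 250 bases before the annotated start, read 5′ to 3′ on the strand of the gene, with capitals for motif matches.
Cxcl9, chr5:92328080-92328329, minus strand: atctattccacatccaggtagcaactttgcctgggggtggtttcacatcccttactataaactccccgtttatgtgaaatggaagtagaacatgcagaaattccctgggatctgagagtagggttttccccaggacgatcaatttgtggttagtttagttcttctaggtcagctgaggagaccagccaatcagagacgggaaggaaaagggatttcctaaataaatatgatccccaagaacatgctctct
Cxcl10, chr5:92348890-92349139, minus strand: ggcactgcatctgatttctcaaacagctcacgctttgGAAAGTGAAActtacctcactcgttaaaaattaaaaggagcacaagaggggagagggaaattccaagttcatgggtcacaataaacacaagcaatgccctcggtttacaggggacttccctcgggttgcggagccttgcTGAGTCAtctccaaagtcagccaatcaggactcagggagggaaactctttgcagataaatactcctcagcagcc
The motifs searched on both strands were the core of the interferon-stimulated response element (GAAA and GAAA with any 2 bases between), the interferon-gamma-activated site (TTC and GAA with any 3 between), an NF-κB site (GGG and TTTCC with any 2 between) and an AP-1 site (TGA and TCA with any 1 between). The Cxcl10 window held the first, starting 213 bases before the start, and the AP-1 motif, 74 bases before it. These matches did not overlap, and the Cxcl9 window held none of the 4. For each motif only the form given was searched, so a window without a match may still hold other forms of these sites, those for interferons included. Of 32851 promoters of the same length, 2.98% held the first motif, 7.02% the second, 1.41% the third and 6.75% the fourth. Of the 7 ligands with an entry in the promoter table, Ccl17 held the interferon-gamma-activated site motif 99 bases before its start.

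Cxcl10 (chr5:92346638-92348889) had 268 UMIs without and 126 with butyrate, 5.10 and 2.43 CPM, a log2 ratio of −1.04 (−1.39 to −0.76). It was found in 88 cells without and 61 with butyrate, of which 17 and 7 had at least 3 UMIs. Its highest cells held 39 and 22 UMIs, and the log2 ratio was −1.08 without the highest cell of each library and −1.10 without the 3 highest. Cxcl10 was the 1 ligand still past 2-fold without its highest cells, and over 8 alternatives its log2 ratio ranged from −1.22 to −0.83. The difference in the share of cells with a UMI was smaller, a log2 ratio of −0.40 with an interval of −0.89 to 0.09.

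The classes of Cxcl10 moved in different directions. In the Lyz2+ cells, 35 without and 23 with butyrate, it had 101 and 4 UMIs, 329 and 18.8 CPM, a log2 ratio of −4.12 (−6.03 to −2.73), in 9 and 3 cells. In Cd3e+Cd8a- cells it had 75 and 31 UMIs (−1.16), and in Cd79a+ cells 27 and 9 (−1.34). In Cd8a+ cells it had 27 and 75 UMIs, a log2 ratio of 1.26 (0.65 to 1.99), in 18 and 21 cells. The top 2 of those Cd8a+ cells with butyrate held 22 and 17 UMIs, and without the 3 highest cells of each library the log2 ratio was 0.44.

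Cxcl9 (chr5:92321347-92328079) had 109 and 62 UMIs, 2.07 and 1.19 CPM, a log2 ratio of −0.75 (−1.27 to −0.33). Over 8 alternatives the log2 ratio ranged from −1.32 with doublets kept to −0.41 with cells thinned to 2000 UMIs. The UMIs lay in only 14 and 12 cells, and the 10 highest cells held 96.3% and 96.8% of them. Lyz2+ cells had 61 UMIs without and 4 with butyrate (199 and 18.8 CPM, −3.40), of which 40 lay in 1 cell of the 35. Flt3+ cells had 20 and 25 UMIs, 101 and 43.4 CPM, in 17 and 38 cells. With every marker set at 1 UMI, which moves cells between these small classes, the Lyz2+ log2 ratio of Cxcl9 was 0.14, while that of Cxcl10 was −3.36.

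The 2 highest Cxcl10 cells without butyrate were Lyz2+ cells with 39 and 27 UMIs, which also held 15 and 40 UMIs of Cxcl9 and 5 of the 7 macrophage genes each. The third, with 25 UMIs, had 2 UMIs of Lyz2, below the threshold of 3, and 195 UMIs of S100a8, a neutrophil gene. The 22-UMI Cd8a+ cell with butyrate had all 8 genes of the interferon response list. The cells with at least 3 Cxcl10 UMIs included 5 of 17 with 3 or more macrophage genes without butyrate and 0 of 7 with butyrate. For Cxcl9 these counts were 3 of 8 and 0 of 6, so most of these cells did not reach 3 macrophage genes in either library. Among the same Cxcl9 cells, Batf3 was found in 4 of 8 without and 5 of 6 with butyrate and Clec9a, a gene of cross-presenting dendritic cells, in 1 of 8 and 4 of 6. Lyz2 was found in 3 of 8 and 2 of 6. These counts of cells are too small to compare the conditions.

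Interferon-response genes moved beside Cxcl10. Cells with at least 5 of 8 such genes (among them Isg15, Ifit1 and Irf7) were 855 (9.75%) without and 293 (3.66%) with butyrate. They held 110 and 51 Cxcl10 UMIs, 41.0% and 40.5% of the total, and 2.75% and 19.4% of Cxcl9. The part of these cells in the Cxcl10 difference was not tested. Rsad2 and Ifit1, both interferon-induced, were among the 5 genes that most marked the cells with at least 3 Cxcl10 UMIs, beside the cycling genes Pclaf, Stmn1 and Mki67. Each of the 5 was found in only 6 to 8 of 17 such cells without and 2 or 3 of 7 with butyrate, so most of these cells lacked it.

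Over all 10 ligands, 5 were at least 2-fold higher with butyrate and 1 was at least 2-fold lower, against 0.56% and 0.873% of 12147 genes with at least 50 UMIs (1.43% in either direction). The median log2 ratio of the ligands was 0.55, against 0.0179 over all those genes. Since the ligands were chosen with earlier results of these data known, comparisons with all genes, here and by class, only describe the set. Without the highest cell of each library 0 ligands were 2-fold higher and 1 lower, with a median of 0.36, and without the 3 highest cells the median was 0.04. By the share of cells with a UMI, 0 of the 10 differed 2-fold in either direction and the median was 0.18. The shares of all genes given above are by CPM over all retained cells. None was computed without the highest cells or by the share of cells, so those counts of ligands have no background. In 7 ligands without and 9 with butyrate the highest cell held at least 10% of the UMIs, against 2.11% and 2.49% of genes with at least 50 UMIs in the library. Those genes were not matched to the ligands in number of UMIs, and the part of abundance in this contrast was not tested.

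In the 5 marker classes of 20 or more cells on both sides, 28 pairs of a ligand and a class had UMIs in both libraries and at least 20 in all, of which 8 were at least 2-fold higher and 6 lower with butyrate. In Cd8a+ cells 4 of 6 ligands passed 2-fold, against 1.47% of the genes of that class, and all 4 were higher. In Cd3e+Cd8a- cells it was 4 of 6 (1.83% of genes), in Cd79a+ cells 2 of 7 (2.14%), in the 23 and 39 Ncr1+ cells 1 of 4 (9.59%), and in the few Lyz2+ cells 3 of 5 (15.8%), all 3 lower. Without the highest cell of the class and library, 4 of the pairs that still had UMIs in both libraries were 2-fold higher and 4 lower. The 4 Cd8a+ log2 ratios were then 1.05 for Xcl1, 0.99 for Cxcl10, −0.21 for Ccl4 and −0.10 for Cxcl16. With butyrate the 1 Cd8a+ cell with at least 3 Cxcl16 UMIs had all 8 mature dendritic cell genes. Ccl3 in Lyz2+ cells had 26 and 0 UMIs, and Ccl17 had 0 and 37. With each 0 set to a limit of 3 UMIs per class, Ccl3 was 6.01-fold lower with butyrate and Ccl17 17.8-fold higher. These ratios leave out the counting error of the nonzero counts and are not lower bounds. A single cell held 17 of the 26 Ccl3 UMIs, and another held 32 of the 37 of Ccl17.

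**Figure D4:**
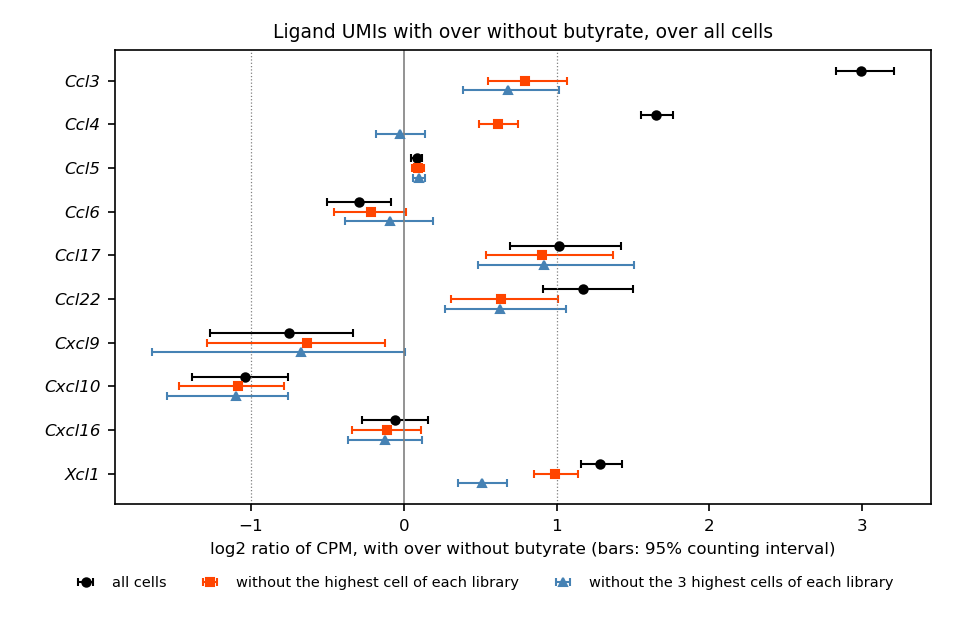
Log2 ratio of CPM, with over without butyrate, for each ligand, with 95% counting intervals, over all cells (circles), without the highest cell of each library (squares) and without the 3 highest (triangles). Ccl3 fell from 2.99 to 0.79 and 0.68, and Cxcl10 stayed near −1.

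**Figure D5:**
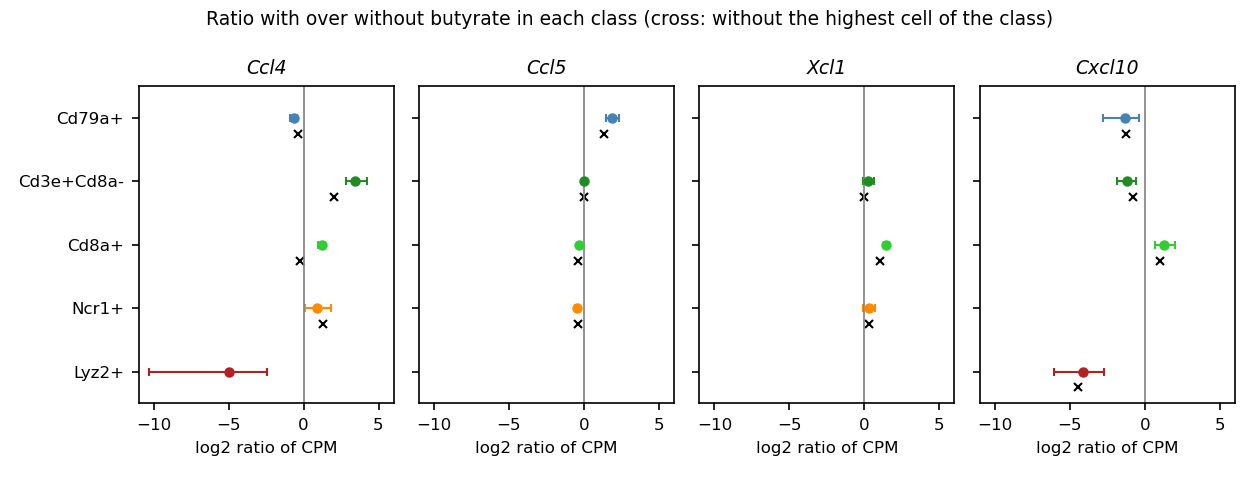
Log2 ratio of CPM with over without butyrate for 4 ligands in these 5 classes, with 95% counting intervals, and crosses for the ratio without the highest cell of the class where UMIs remain in both. Cxcl10 lay at −4.12 in Lyz2+ and 1.26 in Cd8a+ cells.

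The receptors of these ligands were read in the same cells. Of 7 looked up, 6 had at least 50 UMIs, with a median log2 ratio of 0.25. Of these, 1 was 2-fold higher with butyrate and 0 lower, against 0.56% and 0.873% of all genes with at least 50 UMIs. That one was Xcr1, the receptor of Xcl1, with 13 and 80 UMIs (2.24, interval 1.78 to 3.61). Its Flt3+ cells with a UMI numbered 1 of 17 and 7 of 38 and held 5 and 72 of these UMIs, so the receptor stood in the class that had 0 Xcl1. Cxcr3, the receptor of Cxcl9 and Cxcl10, was at 29.8 and 33.7 CPM in Cd8a+ cells, and Cxcr6, the receptor of Cxcl16, at 49.7 and 55.3 CPM in Cd8a+ and 16.7 and 29.0 CPM in Cd3e+Cd8a- cells. Ccr4, the receptor of Ccl17 and Ccl22, was at 3.94 and 5.55 CPM in Cd3e+Cd8a- cells, and Ccr1 at 205 and 202 CPM in the few Lyz2+ cells. The mixed class held both Ccl22 (30 and 155 UMIs) and Ccr4 (7 and 5 UMIs), and Flt3+ cells had 0 Ccr4 UMIs in both libraries.

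Of 24 other chemokine ligands looked up, 11 had at least 50 UMIs, with a median log2 ratio of −0.02. Of these, 2 were at least 2-fold higher with butyrate and 1 lower, against 0.56% and 0.873% of all genes with at least 50 UMIs. Ccl1 had 23 and 414 UMIs (3.91), most of them in the cell described above, and 0.78 without the highest cell of each library. Cxcl3 had 11 and 42 UMIs (1.56). Ccl7 had 60 and 12 UMIs (−1.91), and Ccl2, a monocyte attractant, had 197 and 109 (−0.81, or −2.22 without the highest cell of each library). In the Lyz2+ cells, of which there were few, Ccl2 had 166 and 2 UMIs and Ccl7 39 and 0, where 0 of a class allows up to 3 UMIs (14.1 CPM). Ccl2, Cxcl9 and Cxcl10 were thus lower in the 23 Lyz2+ cells with than in the 35 without butyrate, except that Cxcl9 was not with every marker set at 1 UMI. They were not alone in this class. Ccl24 was lower too (378 and 106 UMIs, log2 ratio −1.31), as were Ccl12 (−1.07), Ccl9 (−0.92) and Cxcl2 (−0.80). Pf4 (0.08) and Ccl6 (0.24) were not lower. Of the 3729 genes of the Lyz2+ class, 10.5% were at least 2-fold lower. The median depth of these cells was 8133 and 4269 UMIs, and C1qa, a macrophage gene, was found in 19 of 35 and 13 of 23 of them. The part of depth and of the make-up of the class in these ratios was not tested.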

How the data were processed

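Droplet libraries (10x Genomics 3′ v3) were made by the authors from pooled MedLN cells of 4 mice per condition, and reads were counted with Cell Ranger 6.0.1 against mm10, per the submitters' processing notes. The deposited values are raw UMI counts per gene and cell, not normalised and still holding cells past the study's filters. Their depth is given above.

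The filters were a mitochondrial share of at most 10% and at least 200 genes per cell. Doublets were ranked by Scrublet in scanpy 1.11.5 and removed at a rate of 0.8% for every 1000 cells (721 and 592 cells). Scrublet's own threshold marked 376 and 252. Classes required 2 UMIs of Cd79a, 3 of Lyz2 or 1 of each other marker. Ratios used CPM with a pseudocount of 0.1 (10 for the 5 genes that most marked a ligand's cells, found in at least 25% of them), and exact binomial or Poisson intervals at 95%. Class ratios needed 20 cells in each library and 20 UMIs. A ratio of 2-fold counted as called. Thinning left out 102 and 57 cells. With 1 library per condition no test was made. Named genes were all ligands, receptors and other ligands with 50 UMIs, the 5 marking genes, the most similar of 10132 genes over class points, and listed markers. Ligands and lists were chosen with earlier results of these data known. Ratios were first tested on simulated data. The simulated counts were independent draws per gene without single cells, so that check does not cover UMIs gathered in few cells. Positions come from GENCODE M21, which held 30934 of the 31053 gene identifiers. Scripts ran in Python 3.11.15 with scipy 1.17.1, pandas 2.3.3 and numpy 2.4.6. Alternatives covered cell filters, doublets, pseudocount, scaling, thinning, marker thresholds and the highest cells. The values of 1 receptor are not reported here.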

Additional observations from a re-analysis of the deposited data

Results flagged for a closer look

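Ccl4 was flagged because its ratio with over without butyrate had opposite signs in different classes. The log2 ratio was 3.43 in Cd3e+Cd8a- cells and 1.21 in Cd8a+ cells, and −4.97 in Lyz2+ cells, where 43 of the 46 UMIs without butyrate lay in 1 cell. With butyrate 1 cell held 164 of the 225 UMIs of the Cd3e+Cd8a- class and 1 cell 411 of the 582 of the Cd8a+ class. The log2 ratio without the highest cell of the class in each library was 2.02 in Cd3e+Cd8a- and −0.21 in Cd8a+ cells. The differences between the classes were not tested.

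Cxcl10 was flagged for the same reason. Its log2 ratio was 1.26 in Cd8a+ cells, −1.34 in Cd79a+ cells, −1.16 in Cd3e+Cd8a- cells and −4.12 in Lyz2+ cells. The difference between Cd8a+ cells and the others was not tested.

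UMIs were also found in cells that the filters left out. In the library without butyrate, 58 UMIs of Ccl17 (37.4% of its UMIs before filters) lay in 2 cells and 57 UMIs of Cxcl9 (34.3%) lay in 3 cells removed for their doublet scores, while the left-out cells held 11.1% of all UMIs of that library.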

How the results depend on the processing

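Of 839 values under alternatives, for 138 results, 658 moved by less than their counting interval or the set limit, 173 moved further and 8 were ratios of 2-fold or more that changed sign. Counting smaller ratios too, 29 of 467 log2 ratios had the other sign under an alternative. Ligands at least 2-fold higher with butyrate (5) were 3 with a pseudocount of 1, and 0 without the highest cell, without the 3 highest cells (chosen after the data were seen) or with cells thinned to 2000 UMIs. The 1 ligand at least 2-fold lower became 0 with at most 5% mitochondrial UMIs or a pseudocount of 1. With doublets kept it was Cxcl9 (−1.32) and not Cxcl10 (−0.91). Other ligands and receptors 2-fold higher (3) were 1 without the 3 highest cells, and those lower (1) were 0 with a pseudocount of 1 and 2 without the highest cell. Pairs of a ligand and a class 2-fold higher (8) were 4 without the highest cell and 2 without the 3 highest, and those lower (6) were 3 without the 3 highest. Of all genes with at least 200 UMIs, 0.661% differed 2-fold. Without the highest cell the log2 ratio was −0.64 for Ccl3 in Cd3e+Cd8a- cells, −0.21 for Ccl4 in Cd8a+ cells and −0.10 for Cxcl16 in Cd8a+ cells, and without the 3 highest −0.0216 for Ccl4 over all cells and −0.43 for Ccl4 in Cd8a+ cells. Cxcl16 in Cd8a+ cells was −0.35 with stricter marker thresholds and −1.11 with classes from marker panels, and Cxcl9 in Lyz2+ cells was 0.14 with every marker at 1 UMI. The cause of the other changes was not tested. Over its 8 alternatives Cxcl10 ranged from −1.22 to −0.83, Ccl5 from 0.08 to 0.12 and Xcl1 from 0.51 to 1.35. No paired analysis was possible because each condition has 1 library. Replicates could not be left out for the same reason, and ligands with few UMIs are limited by depth.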
